A study of Mus musculus with 11 samples.

Results

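The miR-26 family is a small group of miRNAs made from hairpins that lie within introns of genes for the small C-terminal domain phosphatases Ctdspl, Ctdsp2 and Ctdsp1. The 4 members described here, mmu-miR-26a-5p, mmu-miR-26b-5p, mmu-miR-26b-3p and mmu-miR-26a-2-3p, written without the species prefix from here on, were chosen by name from the 1907 mature miRNA names that each library was counted on, by a rule that uses no measured value, although earlier results of these data were known when the family was picked. The libraries hold small RNA from male Balb/cOlaHsd mice, aged 3 months by the sample labels, with 3 to 6 months given in the methods for all mice of the study. The 6 sham libraries are from surgery in which the middle cerebral artery was exposed and lifted, and the 5 pMCAO libraries from surgery in which it was closed permanently by thermocoagulation, which models a stroke without reperfusion. Both groups are named as vehicle in the deposited data, and the methods describe no vehicle given to these mice. Tissue was taken 3 days after surgery from perfused brains, and the labels call it cortex in the sham group but peri-ischemic cortex, which borders the ischemic core, in the pMCAO group. The question asked of the family was whether its arms differed between peri-ischemic and sham tissue.

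A miRNA hairpin is cut into a duplex with a 5p and a 3p arm. One arm is usually kept in an Argonaute protein, which it guides to messenger RNAs that pair with its seed, bases 2 to 8, and the other is mostly degraded. miR-26 is known as a family that rises as cells leave the cell cycle and differentiate. The host phosphatases are known to act with REST, a repressor of neuronal genes, and on the retinoblastoma protein, and miR-26b is known from neural differentiation to act on Ctdsp2, the transcript of one of its family's own hosts.

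The mature sequences show how close the members are and which of them share a seed. They are taken from RefSeq on build GRCm38.p6, are written 5′ to 3′ and have the seed in capitals.
miR-26a-5p: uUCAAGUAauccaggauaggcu
miR-26b-5p: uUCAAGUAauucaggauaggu
miR-26b-3p: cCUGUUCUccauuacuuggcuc
miR-26a-2-3p: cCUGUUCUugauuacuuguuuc
miR-26a-1-3p: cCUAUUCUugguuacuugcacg
The last of these, miR-26a-1-3p, is not one of the 4 members but is the only other name of the family in the tables. The abundant arms, miR-26a-5p and miR-26b-5p, are identical at 19 of the 21 positions they share, and counted from the 5′ end of miR-26a-5p they differ by C11U and C21U, with miR-26a-5p 1 base longer. No other name with a sequence in the table used here holds their seed. The minor arms miR-26b-3p and miR-26a-2-3p also share a seed and are identical at 18 of 22 positions, with the differences C9U, C10G, G19U and C20U counted from the 5′ end of miR-26b-3p. Their seed is also found in miR-6932-3p and miR-7039-3p.

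The hairpins show where each arm was cut from, with the mature arms in capitals.
Mir26a-1: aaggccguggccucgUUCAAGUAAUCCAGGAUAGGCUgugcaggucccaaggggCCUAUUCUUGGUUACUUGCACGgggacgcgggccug
Mir26a-2: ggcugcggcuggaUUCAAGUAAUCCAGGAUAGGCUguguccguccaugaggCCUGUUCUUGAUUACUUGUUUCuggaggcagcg
Mir26b: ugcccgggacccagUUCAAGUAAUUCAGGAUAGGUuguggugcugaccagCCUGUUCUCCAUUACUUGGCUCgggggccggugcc
All 3 lie on the plus strand, the strand of their host gene. Mir26a-1 spans chr9:119031796-119031885 in intron 5 of Ctdspl, Mir26a-2 spans chr10:126995530-126995613 in intron 5 of Ctdsp2, and Mir26b spans chr1:74394310-74394394 in intron 4 of Ctdsp1, with introns numbered on the transcripts ENSMUST00000073109.11, ENSMUST00000105256.9 and ENSMUST00000027367.13 of GENCODE M21. No exon of a host transcript that spans the hairpin, and no other annotated gene, overlaps any of them. Since miR-26a-5p is the same in Mir26a-1 and Mir26a-2, its counts cannot be split between Ctdspl and Ctdsp2, whereas each 3p arm is particular to 1 hairpin. The sources used here do not say how reads that match both places, or that differ from miR-26b-5p by 1 base, were assigned.

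The match to the seed of the 5p arms, TACTTGA in DNA letters on the transcript strand, was looked for in the longest annotated 3′ untranslated region of each host. It occurs 1 time in Ctdsp2, from base 1080 of a region of 3489 bases, as gttgctctTACTTGAtttgccaaa with the match in capitals, and not in Ctdsp1 or Ctdspl. Of the 1917 protein-coding genes whose 3′ untranslated region is within 20% of that length, 23.2% hold the same letters, and 9.67% of all 21010 do. The Ctdsp2 region was that of the transcript ENSMUST00000105255.2, which does not span the Mir26a-2 hairpin. Shorter matches to the seed were not looked for.

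The members lay at very different levels. Levels are given in CPM, the counts of a library scaled to a common total with TMM factors. The members are alike in mature length, at 21 or 22 bases. How efficiently each sequence entered a library was not measured, so differences between members are differences in counts. Over all 11 libraries miR-26a-5p had a mean of 19497 CPM and ranked 8 among the 1907 names. The next more abundant names were miR-138-5p (38792 CPM) and miR-9-5p (30915 CPM), and the next less abundant were miR-30d-5p (14826 CPM) and miR-30c-5p (12869 CPM). All 4 of these means lay further from that of miR-26a-5p than the larger of the SDs over libraries. The mean of miR-26b-5p was 497 CPM at rank 143, and its neighbours in the order, miR-674-3p, miR-376b-5p, miR-361-5p and miR-3102-3p, were all within 1 SD of it. The minor arms were far rarer, with 15.8 CPM and rank 417 for miR-26b-3p and 4.78 CPM and rank 510 for miR-26a-2-3p.

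**Figure D1:**
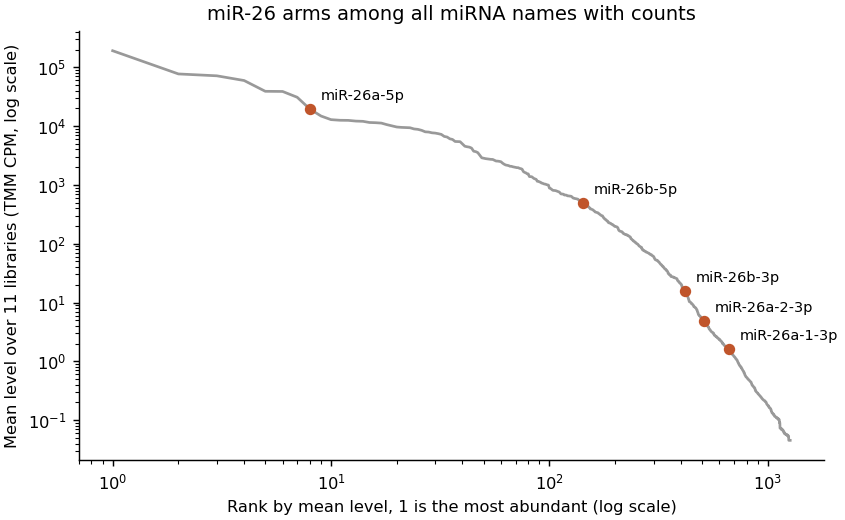
Mean level over the 11 libraries (TMM CPM, log scale) against rank by level (log scale) for all miRNA names with counts (grey line), with the miR-26 names as points. miR-26a-5p stands at rank 8 and miR-26a-1-3p at rank 665.

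Together the 4 members took a mean of 1.99% ± 0.0791 of all counts for sham (SD, n = 6) and 2.01% ± 0.380 for pMCAO (SD, n = 5). The 5 pMCAO shares were 1.63%, 1.76%, 1.95%, 2.09% and 2.61%, and the sham shares ran from 1.86% to 2.07% with a median of 2.003%. The pMCAO shares therefore reached both below and above the sham range. The 95% Wilson interval of the smallest pMCAO share was 1.61% to 1.66%, which covers counting error only. miR-26a-5p supplied nearly all of the family's counts, 97.7% ± 0.299 for sham (SD, n = 6) and 97.0% ± 0.575 for pMCAO (SD, n = 5).

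The sham libraries held 1429037 to 2319810 counts and the pMCAO libraries 744877 to 1411620, so every pMCAO library was shallower. From these counts edgeR's filter kept 479 miRNAs, among them 3 of the 4 members, and its quasi-likelihood test compared pMCAO with sham. At an adjusted p under 0.05, 34 of the 479 were called, 7.10%, with 21 higher and 13 lower in pMCAO. The split was 23 higher and 4 lower under upper-quartile factors and 43 higher and 1 lower under total counts alone. None of the 3 tested members was called (0 of 3 by edgeR and by DESeq2, and 0 at an unadjusted p under 0.05 in edgeR, a level that 24.4% of the tested miRNAs passed). Their median log2 fold change was -0.08, against 0.00147 for all tested miRNAs. For 7.52% of the tested miRNAs the pMCAO and sham libraries did not overlap, and for each of the 3 members they did.

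miR-26a-5p, the form made from Ctdspl and Ctdsp2, was measured at 15187, 14955, 18266, 19592 and 23281 CPM in pMCAO replicates 1 to 5. In the sham libraries its lowest level was 18780 CPM, its median 20464 CPM and its highest 23019 CPM. Replicates 1, 2 and 3 of the pMCAO group were below every sham library, replicate 4 was inside the sham range and replicate 5 was above it. This order rests on the TMM factors, which were 0.8645 to 1.037 for sham and 1.032 to 1.137 for pMCAO libraries. As a share of all counts the family, nearly all of it miR-26a-5p, ran from 1.86% to 2.07% in sham libraries. By that share pMCAO replicate 3, at 1.95%, was inside the sham range and replicate 4, at 2.09%, above it. Mean levels were 20531 ± 1462 CPM for sham (SD, n = 6) and 18256 ± 3441 CPM for pMCAO (SD, n = 5). The log2 fold change was -0.17 (standard error 0.12, 95% interval -0.42 to 0.08, Benjamini-Hochberg adjusted p = 0.434 from edgeR). By size this difference ranked 207 from the smallest of 479, and the interval spans folds of 0.746 to 1.06. Without pMCAO replicate 5 the log2 fold change was -0.26 (adjusted p = 0.197 from edgeR), and without pMCAO replicate 2 it was -0.07 (adjusted p = 0.872 from edgeR). With total counts alone as the scaling it was 0.00816, below the median of 0.18 that this scaling gave to all tested miRNAs.

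**Figure D2:**
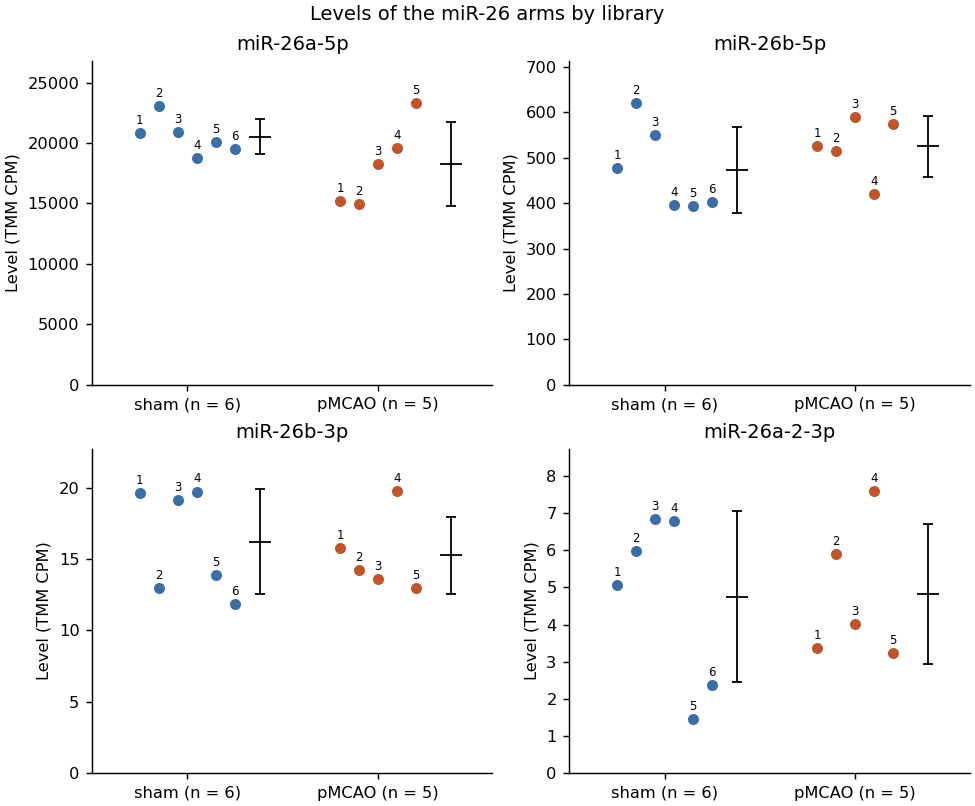
Level (TMM CPM, axis from 0) of each miR-26 arm in the 6 sham (blue) and 5 pMCAO (orange) libraries, with replicate numbers and the group mean ± SD beside the points. The groups overlap for all 4 arms, and miR-26a-5p spreads from 14955 to 23281 CPM in pMCAO against 18780 to 23019 CPM in sham.

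The spread of miR-26a-5p was small among sham libraries and near the middle of the tested miRNAs among pMCAO libraries. The SD of its log2 CPM was 0.101 among sham libraries, which ranked 24 from the lowest of 479 (median of all 0.274). Among pMCAO libraries it was 0.267, rank 212 (median of all 0.292), and the difference in spread was not tested. Within the pMCAO group the order of its level was also the order of sequencing depth. The 2 shallowest libraries, with 744877 and 855753 counts, held the 2 lowest levels, and the deepest, with 1411620 counts, held the highest. Thinning every library to the smallest total left the log2 fold change at -0.14. The part of depth in this order was not tested.

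**Figure D3:**
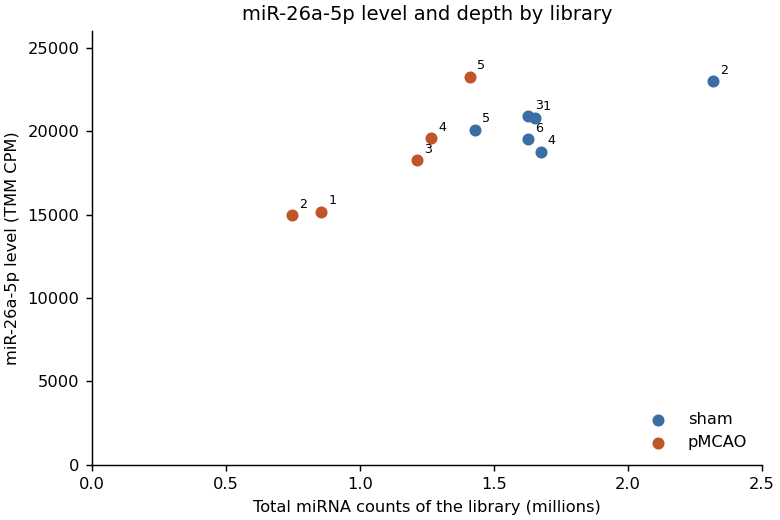
Level of miR-26a-5p (TMM CPM, axis from 0) against the total counts of the library for 6 sham (blue) and 5 pMCAO (orange) libraries, numbered by replicate. The pMCAO points rise from 14955 CPM in the shallowest library to 23281 CPM in the deepest of that group.

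miR-26b-5p, which comes from Ctdsp1 alone, was measured at 526.4, 514, 589.9, 420.4 and 575 CPM in pMCAO replicates 1 to 5. The sham libraries ran from 394 CPM over a median of 440.4 CPM to 620.2 CPM. All pMCAO libraries fell inside the sham range, and the highest level of all was that of sham replicate 2. Mean levels were 473 ± 94.6 CPM for sham (SD, n = 6) and 525 ± 66.8 CPM for pMCAO (SD, n = 5), and the log2 fold change was 0.15 (standard error 0.14, 95% interval -0.16 to 0.46, adjusted p = 0.628 from edgeR). Without sham replicate 2 the log2 fold change was 0.26, and with total counts alone as the scaling it was 0.34, with adjusted p-values from edgeR of 0.326 and 0.123.

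miR-26b-3p, the other arm of the same hairpin, was measured at 15.7, 14.2, 13.6, 19.7 and 12.9 CPM in pMCAO replicates 1 to 5. The sham libraries ran from 11.9 CPM over a median of 16.5 CPM to 19.7 CPM. Sham replicates 1, 3 and 4 and pMCAO replicate 4 lay together at the top, and the groups overlapped throughout. These levels rest on 12 to 32 counts a library. The log2 fold change was -0.08 (standard error 0.22, 95% interval -0.55 to 0.39, adjusted p = 0.906 from edgeR), and the interval spans folds of 0.682 to 1.31. It was 0.0888 with total counts alone.

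miR-26a-2-3p, the minor arm of the Ctdsp2 hairpin, did not pass the filter. It had 3, 5, 5, 10 and 5 counts in pMCAO replicates 1 to 5 and between 2 and 12 counts in the sham libraries. Its level was 4.75 ± 2.31 CPM for sham (SD, n = 6) and 4.82 ± 1.88 CPM for pMCAO (SD, n = 5), and the mean log2(CPM + 1) differed by 0.0875 (exact permutation test over the 462 arrangements of the libraries, two-sided, p = 0.827). The difference was below 0 without sham replicate 5 (-0.13), sham replicate 6 (-0.04) or pMCAO replicate 4 (-0.07). miR-26a-1-3p had 0 to 3 counts in pMCAO and 2 to 4 counts in sham libraries. Its level was 2.07 ± 0.666 CPM for sham (SD, n = 6) and 1.09 ± 0.740 CPM for pMCAO (SD, n = 5), and the mean log2(CPM + 1) differed by -0.62 (exact permutation test, two-sided, p = 0.0519, not adjusted over the 5 family names). Its 0 in pMCAO replicate 1 allows up to 3 counts, or 3.51 CPM by the library total.

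**Figure D4:**
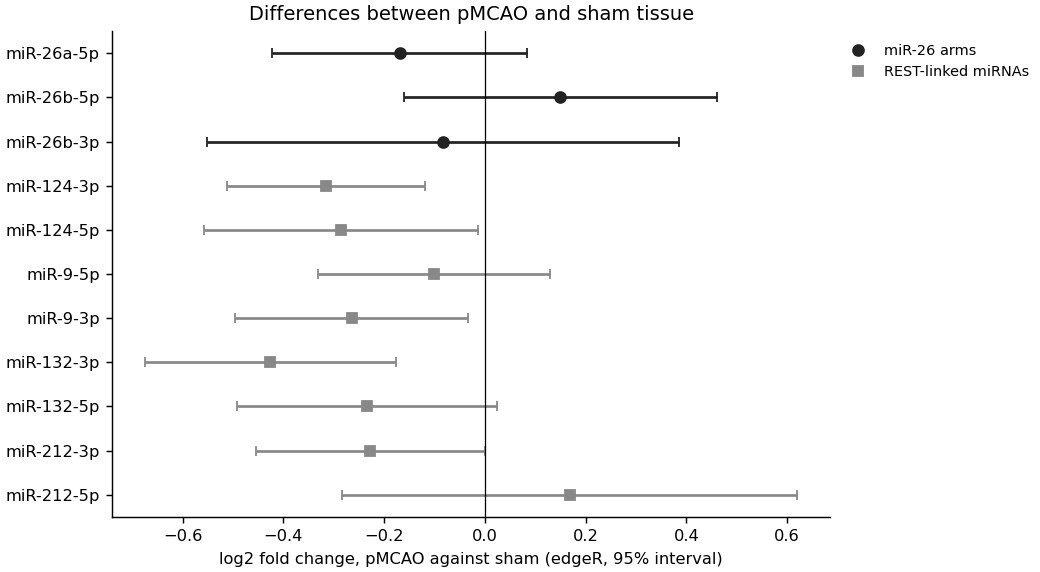
Log2 fold change of pMCAO against sham with its 95% interval (edgeR, not adjusted for the number of miRNAs) for the 3 tested miR-26 arms (circles) and the 8 REST-linked miRNAs (squares). The 3 miR-26 intervals include 0, and the point of miR-132-3p lies lowest, at -0.43.

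Ratios between arms of the same library do not depend on how the libraries are scaled. They were compared by exact permutation tests on the log2 ratio of counts, two-sided, with p-values adjusted over the 3 ratios computed. The ratio of miR-26a-5p to miR-26b-5p was 28.8, 29.0, 30.9, 46.6 and 40.4 in pMCAO replicates 1 to 5. In the sham libraries it ran from 37.1 to 51.0. Replicates 1, 2 and 3 of the pMCAO group were below every sham library, and replicates 4 and 5 were inside the sham range. The mean log2 ratio was 5.46 ± 0.190 for sham (SD, n = 6) and 5.11 ± 0.314 for pMCAO (SD, n = 5). The difference of -0.35 had an interval of -0.72 to 0.03 and did not pass the threshold (exact permutation test, p = 0.0606, adjusted p = 0.182). Without pMCAO replicate 4 the difference was -0.46 (exact p = 0.0286, adjusted p = 0.0857), and without pMCAO replicate 1 it was -0.29 (exact p = 0.133, adjusted p = 0.400). The part in this ratio of reads assigned to the wrong one of these similar arms was not tested.

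The balance of the arms of the Mir26b hairpin also overlapped between the groups. For each count of miR-26b-3p there were 32.3, 34.8, 42.1, 20.9 and 43.4 of miR-26b-5p in pMCAO replicates 1 to 5, and 19.8 to 46.9 in the sham libraries. The mean log2 ratio was 4.85 ± 0.425 for sham (SD, n = 6) and 5.07 ± 0.423 for pMCAO (SD, n = 5), a difference of 0.22 with an interval of -0.41 to 0.78 (exact permutation test, p = 0.411, adjusted p = 0.424). The 3p arm's share of the hairpin's counts was 3.39% ± 0.920 for sham (SD, n = 6) and 2.91% ± 0.930 for pMCAO (SD, n = 5). The log2 ratio of miR-26a-5p to miR-26a-2-3p was 12.15 ± 0.809 for sham (SD, n = 6) and 11.81 ± 0.615 for pMCAO (SD, n = 5), and the interval of the difference, -1.46 to 0.65, was the widest of the 3 (exact permutation test, p = 0.424, adjusted p = 0.424).

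**Figure D5:**
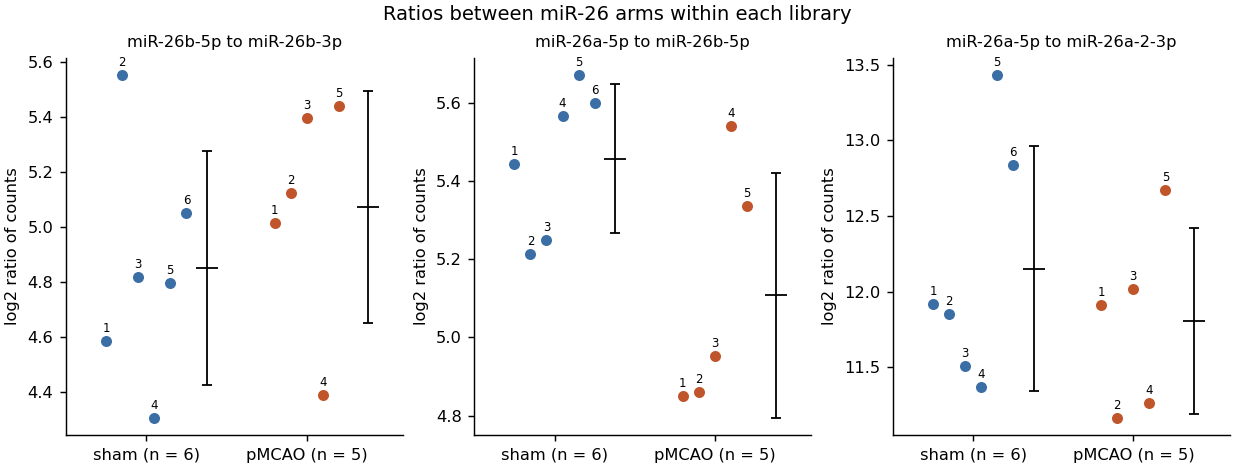
Log2 ratio of counts between pairs of miR-26 arms in each sham (blue) and pMCAO (orange) library, numbered by replicate, with the group mean ± SD. In the middle panel pMCAO replicates 1, 2 and 3 lie below all sham libraries and replicates 4 and 5 among them.

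As a measure of likeness, the SD over the 11 libraries of the log2 ratio to miR-26a-5p was taken for each of the 478 other tested miRNAs. A small SD means that the ratio stayed nearly the same between libraries, as it also does where both miRNAs vary little. The smallest belonged to miR-382-5p (0.110), miR-376a-5p (0.112), miR-181a-5p (0.131), miR-384-5p (0.133) and miR-335-5p (0.136), against a median of 0.373. miR-26b-5p, with 0.301, ranked 140 of 478 and miR-26b-3p, with 0.342, ranked 207. Seen from the other side, miR-26a-5p ranked 66 of 478 in likeness to miR-26b-5p (median of all 0.412) and 128 of 478 in likeness to miR-26b-3p (median of all 0.402). Most like miR-26b-5p were miR-203-3p (0.181), miR-301a-3p (0.184) and miR-190a-3p (0.189), and its hairpin partner miR-26b-3p ranked 221 with 0.405. Counting error adds to the SD of rare miRNAs such as miR-26b-3p.

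Because the host phosphatases are cofactors of REST, a list of miRNAs known to be repressed by REST was set beside the family. Its 8 members are the 5p and 3p arms of miR-124, miR-9, miR-132 and miR-212, so they are not 8 separate miRNAs. All 8 were tested. For 2 of them, miR-124-3p and miR-132-3p, the pMCAO and sham libraries did not overlap, against 7.52% of all tested. In pMCAO 1 was lower (2.71% of all tested were), none was higher (0 of 8 by edgeR), and the median log2 fold change was -0.25. The call was miR-132-3p, a miRNA induced by neuronal activity, at 8599 ± 1241 CPM for sham (SD, n = 6) and 6401 ± 579 CPM for pMCAO (SD, n = 5). Its log2 fold change was -0.43 (edgeR adjusted p = 0.0412, with a standard error of 0.12). The call was kept in 3 of the 11 fits with one library left out, those without sham replicate 1, sham replicate 5 or pMCAO replicate 3, and its adjusted p from edgeR was 0.145 without pMCAO replicate 2 and 0.188 with total counts alone. miR-124-3p, the neuronal miRNA known to act on Ctdsp1, was at -0.32 (edgeR adjusted p = 0.0523, and 0.0428 without sham replicate 6). For the others the log2 fold changes were -0.29 for miR-124-5p, -0.26 for miR-9-3p, -0.23 for miR-132-5p, -0.23 for miR-212-3p, -0.10 for miR-9-5p and 0.17 for miR-212-5p, and none of these 6 passed the test. Whether the miR-26 arms differ from this list was not tested.

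Markers of myeloid cells were higher in pMCAO tissue, whereas few markers of the other listed cell types passed the test. All 5 myeloid miRNAs rose in pMCAO (4.38% of all tested were higher), and their summed level was 326 to 790 CPM in sham and 871 to 3986 CPM in pMCAO libraries. In each fit with one library left out 4 or 5 of them passed. The most abundant of them on average in both groups was miR-223-3p, known from neutrophils and monocytes. None of the 5 neuronal markers passed the test. Their sums, to which miR-124-3p and miR-128-3p gave most, were 290803 to 369658 CPM in sham and 250038 to 296161 CPM in pMCAO. The log2 fold changes were -0.32 for miR-124-3p and -0.39 for miR-128-3p, but 0.21 for miR-138-5p, 0.32 for miR-129-5p and 0.08 for miR-129-2-3p. Of 3 oligodendrocyte markers 1, miR-338-3p, was lower (log2 fold change -0.54, edgeR adjusted p = 0.0453). That call was kept in 1 of the 11 fits with one library left out, that without pMCAO replicate 3. Neither endothelial marker passed, and of the 5 erythrocyte markers 2 were tested and neither passed, with sums of 49.2 to 5375 CPM in sham and 639.7 to 4735 CPM in pMCAO. The highest sham sum was that of replicate 1, the other sham sums were at most 272 CPM, and without that library both tested erythrocyte markers were higher in pMCAO (edgeR). No marker of these lists was at 0 in all libraries. Without sham replicate 1 the log2 fold change of miR-26a-5p was -0.15 and that of miR-26b-5p 0.17. In bulk tissue, fewer cells of a type and less RNA per cell cannot be told apart, and the part of these shifts in the miR-26 levels was not tested.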

How the data were processed

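Small RNA enriched from cortex gave 6 sham and 5 pMCAO libraries, sequenced on an Ion Torrent S5. As the authors describe, adapters were removed with the Torrent Suite, reads of 20 to 30 bp were kept, mapped to mm10 with Bowtie and counted with HTSeq on miRBase v21 names. Deposited files hold unnormalized counts, 1 for each mature name. Settings for reads matching several names are not given in the sources used here. The comparison used edgeR 4.0.16 under R 4.3.3 (filterByExpr, minimum count 10, minimum total 15, TMM, glmQLFit and glmQLFTest, Benjamini-Hochberg, threshold 0.05). Standard errors are the fold change over the square root of F. DESeq2 1.42.0 was an alternative. Ratios used 0.5 added to each count, and their intervals hold the shifts that the exact test did not reject. Likeness and spread used log2 CPM with a prior count of 2. Scripts were tested on simulated counts. Sequences and positions came from RefSeq GRCm38.p6 and GENCODE M21, both of the mm10 assembly, and 1623 of the 1907 names had a mature sequence.

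Groups and replicates follow the sample labels. The labels do not say that libraries came from separate mice, so p-values measure the spread between libraries. The 25 pairs of libraries within a group all differed by more than sampling noise (chi-square per degree of freedom at least 18.0). Members were taken by name, with no measured value in the rule, but members and lists were chosen with earlier results of these data known. Named miRNAs are all family names, those most like miR-26a-5p (5) and miR-26b-5p (3), the 2 neighbours on each side by level, the REST list and marker examples. Wilson intervals of shares and the floor of 3 counts cover counting error only, since reads carry no molecular identifiers, whereas intervals of fold changes and ratios rest on the spread between libraries. Alternatives were 3 scalings, 2 filters, DESeq2, a robust fit, the replicate number as a block, thinning and each library left out. Counting the REST and cell type lists under these alternatives was added after seeing the data.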

Additional observations from a re-analysis of the deposited data

Results flagged for a closer look

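Of the 20 sets of values searched, 1 held a library well apart from its group, and chance alone gives 1.0. The log2 total count of sham replicate 2 was 21.1, against 20.7 for the next sham library, a gap of 67.3% of the group's range. This library also held the highest sham levels of miR-26a-5p (23019 CPM) and miR-26b-5p (620 CPM). Without it their log2 fold changes were -0.12 and 0.26, and neither passed the threshold (adjusted p = 0.700 and 0.326 from edgeR).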

How the results depend on the processing

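In 120 alternative fits of the 4 members and the 3 ratios, none gave an adjusted p, or for miR-26a-2-3p an exact p, under 0.05, and the smallest was 0.0857. Total counts alone turned miR-26a-5p to 0.00816 and miR-26b-3p to 0.0888. miR-26a-2-3p, at 2 to 12 counts, turned to -0.0192 in edgeR without a filter and -0.000425 in DESeq2, and could not be tested with at least 10 counts in every library or in the robust fit. With one library left out, log2 values ran from -0.259 to -0.0732 for miR-26a-5p, from 0.102 to 0.256 for miR-26b-5p, from -0.187 to -0.00578 for miR-26b-3p and from -0.133 to 0.202 for miR-26a-2-3p, negative without sham replicate 5 or 6 or pMCAO replicate 4. The ratio differences ran from -0.458 to -0.285 for miR-26a-5p to miR-26b-5p, from 0.112 to 0.392 for the Mir26b arms and from -0.562 to -0.0896 for miR-26a-5p to miR-26a-2-3p. The difference in the family's share ran from -0.129 to 0.116 percentage points. The 34 calls over all miRNAs became 18 with at least 10 counts in every library, 19 after thinning and 16 to 36 with one library left out, moving by over 1.5 times without sham replicate 2, 3, 4 or 6 or pMCAO replicate 2 or 5. The cause of the sign changes was not tested.

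No pairing of samples by replicate number was seen. The same-numbered correlation of deviations ran from -0.0701 to 0.230 and 1 of 5 pMCAO libraries was closest to its own number. With 5 pairs a weak pairing could be missed. With the replicate block 22 miRNAs were called, miR-26a-5p was at -0.200, miR-26b-5p at 0.121, miR-26b-3p at -0.157 and miR-26a-2-3p at -0.0414, and no member or ratio passed the threshold. Under the block miR-132-3p (adjusted p = 0.136 from edgeR) and miR-338-3p (adjusted p = 0.0858 from edgeR) were not called, and 4 of 5 myeloid miRNAs were.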
